A study of Mus musculus with 2 samples.

Results

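The NMDA receptor genes are the 7 mouse genes Grin1, Grin2a, Grin2b, Grin2c, Grin2d, Grin3a and Grin3b, which encode the subunits of the NMDA-type glutamate receptor. They were taken by symbol, and all 7 were found among the 21938 protein-coding genes of GENCODE M21 on chromosomes 1 to 19, X and Y. DNase-seq had been performed on hippocampus (labelled as a layer of hippocampus) of female B6CASTF1/J mice, the F1 offspring of a cross between strains, at an age of 8 to 10 months. The enzyme DNase I cuts DNA where chromatin is accessible; sites with many cuts are listed as peaks, and short stretches with few cuts that may be shielded by bound protein are listed as footprints. The series held 1 group with 2 libraries, biological replicates 1 and 2, each from a pool of 2 biosamples. Both carry the same donor label, and nothing in the labels says whether the pools came from separate animals, so the spread between them may be partly technical. With 1 group of 2 libraries there is no comparison between conditions, and no test was made; values are given for both libraries and read against their spread and against all genes.

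NMDA receptors are cation channels that open when glutamate and a co-agonist, glycine or D-serine, bind while the membrane is depolarised, and the calcium they admit drives long-term synaptic plasticity in the hippocampus. Every receptor contains the subunit from Grin1, which binds the co-agonist. It is joined by subunits from the Grin2 genes, which bind glutamate and set the kinetics of the channel, and in some receptors by subunits from the Grin3 genes, which bind glycine. In the adult hippocampus Grin2a and Grin2b are known as the main Grin2 genes of pyramidal neurons, Grin2c is best known from cerebellar granule cells, Grin2d from interneurons, Grin3a from juvenile brain and Grin3b from motor neurons.

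The sequences below carry the main results. They are from the reference assembly (mm10, GRCm38), not from the cross itself, and are written 5′ to 3′ on the strand of the named gene, with capitals marking bases that lay in footprints of both libraries. The first pair are 150 bases each, upstream of Grin1, which was open, and of Grin2c, which was not. They lie just upstream of the RefSeq start of Grin1 and of the most upstream RefSeq start of Grin2c. The rest are the common stretches of peaks listed in both libraries: the strongest intronic sites of Grin2b and Grin2a, the intronic sites of Grin1 and Grin3a with the highest signal, and the listed site closest to Grin2c.
Grin1 upstream, chr2:25319188-25319337, minus strand: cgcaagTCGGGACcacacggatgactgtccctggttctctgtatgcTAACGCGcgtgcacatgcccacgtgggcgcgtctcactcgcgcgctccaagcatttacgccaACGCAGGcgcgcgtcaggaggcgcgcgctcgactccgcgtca
Grin2c upstream, chr11:115267298-115267447, minus strand: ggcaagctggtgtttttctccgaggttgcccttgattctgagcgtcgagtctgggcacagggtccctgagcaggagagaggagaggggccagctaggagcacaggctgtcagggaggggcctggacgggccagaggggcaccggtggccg
Grin2b intron 4, chr6:135907641-135907860, minus strand: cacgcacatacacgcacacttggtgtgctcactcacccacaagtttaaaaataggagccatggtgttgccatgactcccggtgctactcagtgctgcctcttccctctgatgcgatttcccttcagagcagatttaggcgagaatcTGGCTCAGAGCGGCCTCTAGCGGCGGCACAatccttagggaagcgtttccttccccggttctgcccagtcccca
Grin2b intron 4, chr6:135859561-135859780, minus strand: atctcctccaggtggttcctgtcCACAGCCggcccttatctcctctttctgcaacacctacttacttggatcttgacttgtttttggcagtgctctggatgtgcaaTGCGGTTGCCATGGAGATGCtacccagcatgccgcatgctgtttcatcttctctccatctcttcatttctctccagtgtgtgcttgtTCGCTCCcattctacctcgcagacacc
Grin2a intron 3, chr16:9768461-9768740, minus strand: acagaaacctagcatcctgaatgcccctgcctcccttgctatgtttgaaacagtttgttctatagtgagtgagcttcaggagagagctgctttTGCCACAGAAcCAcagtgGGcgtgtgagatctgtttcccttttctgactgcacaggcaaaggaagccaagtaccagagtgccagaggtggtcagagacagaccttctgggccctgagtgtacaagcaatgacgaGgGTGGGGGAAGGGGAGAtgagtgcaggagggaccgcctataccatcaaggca
Grin2a intron 3, chr16:9972781-9973020, minus strand: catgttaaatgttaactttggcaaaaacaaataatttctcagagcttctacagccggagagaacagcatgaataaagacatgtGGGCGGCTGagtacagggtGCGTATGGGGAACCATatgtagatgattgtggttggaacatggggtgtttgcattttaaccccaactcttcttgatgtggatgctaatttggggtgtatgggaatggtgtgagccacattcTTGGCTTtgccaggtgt
Grin2a intron 3, chr16:9851661-9851880, minus strand: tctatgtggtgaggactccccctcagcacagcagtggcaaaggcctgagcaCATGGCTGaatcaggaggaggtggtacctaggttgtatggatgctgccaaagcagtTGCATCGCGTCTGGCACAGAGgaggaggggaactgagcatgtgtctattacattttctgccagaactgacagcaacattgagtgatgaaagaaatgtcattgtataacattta
Grin1 intron 1, chr2:25318102-25318340, minus strand: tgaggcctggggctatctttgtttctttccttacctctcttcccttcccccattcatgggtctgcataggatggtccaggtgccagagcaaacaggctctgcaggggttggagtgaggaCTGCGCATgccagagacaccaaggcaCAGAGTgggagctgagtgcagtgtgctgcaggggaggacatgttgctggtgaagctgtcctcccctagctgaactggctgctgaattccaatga
Grin3a intron 6, chr4:49688741-49688920, minus strand: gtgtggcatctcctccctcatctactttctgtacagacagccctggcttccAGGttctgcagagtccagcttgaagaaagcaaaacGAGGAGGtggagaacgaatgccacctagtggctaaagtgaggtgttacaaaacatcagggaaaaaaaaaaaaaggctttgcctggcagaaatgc
Grin2c upstream site inside Fdxr, chr11:115270622-115270760, minus strand: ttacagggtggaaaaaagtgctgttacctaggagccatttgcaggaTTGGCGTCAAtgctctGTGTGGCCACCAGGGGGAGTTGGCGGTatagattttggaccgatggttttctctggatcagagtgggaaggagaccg

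Promoters of Grin1, Grin2a, Grin2b and Grin3a were open in both libraries, and those of Grin2c, Grin2d and Grin3b were listed in neither. A promoter was taken to reach 500 bp upstream and downstream of each annotated transcript start, and counted as open when a peak of the larger deposited list touched it by at least 1 bp. Thus 4 of 7 members were open in both libraries, against 59.2% of all protein-coding genes, a share close to the background. The same 4 had a footprint in the promoter in both libraries, against 56.9% of all genes. The same 4 were also open in the stricter deposited list, where 53.3% of all genes were. Taken alone, replicate 1 and replicate 2 gave the same 4 genes, against 60.4% and 62.4% of all genes.

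Where a promoter was open, its signal was modest for this tissue. The promoter signal is the deposited height of the highest peak touching the window; no source used here gives its scale, and it rises in whole multiples of a step of 0.00606 in replicate 1 and 0.00795 in replicate 2. At Grin1 (chr2:25291181-25319187, minus strand), the obligatory subunit, it was 1.83 in replicate 1 and 2.08 in replicate 2 (1.96 ± 0.18, SD, n = 2), which are 302 and 262 steps. By its highest peak Grin1 was above the other members, yet it lay at percentile 42.8 of the genes open in both libraries. At Grin2a (chr16:9567898-9995560, minus strand) the values were 1.19 and 1.73 (1.46 ± 0.38, SD, n = 2), percentile 31.5. Grin2b (chr6:135713233-136173511, minus strand) had 1.45 and 1.34 (1.39 ± 0.08, SD, n = 2), percentile 29.8. Grin2a and Grin2b, the main glutamate-binding subunits of pyramidal neurons, overlapped in their values. Grin3a (chr4:49661611-49845744, minus strand), a glycine-binding subunit, had 0.98 and 1.34 (1.16 ± 0.25, SD, n = 2), percentile 23.5. In both libraries the Grin1 value was above every Grin2 and Grin3 value of either library; Grin2a, Grin2b and Grin3a could not be ordered beyond their spread. The median over the 4 open members was 1.42, against 2.30 over all genes open in both libraries, whose middle range ran from 1.22 to 4.06.

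**Figure D1:**
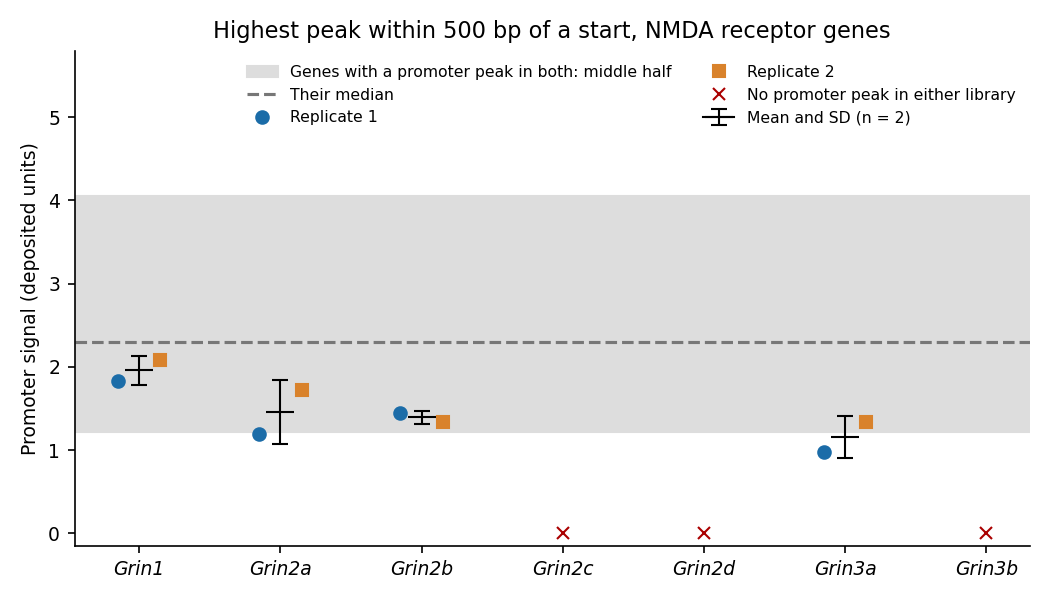
Promoter signal of each NMDA receptor gene (horizontal axis) in deposited units (vertical axis), with a circle for replicate 1, a square for replicate 2, the mean and SD (n = 2) in black, and crosses for genes with no promoter peak in either library. The band and dashed line are the quartiles (1.22 to 4.06) and median (2.30) over all genes open in both libraries; the 4 open members lie between 0.98 and 2.08, below that median.

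Peaks in the open promoters often lay within 500 bp of several annotated starts at once. Over the 7 genes GENCODE M21 lists 30 distinct starts, of which 15 had a peak in both libraries. At Grin1, 5 of 9 starts were open, and these 5 lie within 92 bp of the gene's 5′ end and shared 1 peak per library. The other Grin1 starts, from 13790 to 22508 bp downstream, had none. At Grin2b all 4 starts were open, served by peaks at the 5′ end with signals up to 1.24 and 1.21 and by a higher peak near the start 1622 bp downstream (1.45 and 1.34). At Grin2a 4 of 6 starts were open; the highest peak lay at the start 1290 bp downstream (1.19 and 1.73), and the peak at the 5′ end had 1.14 and 1.23. A Grin2a start 3027 bp downstream had a peak in replicate 2 but not in replicate 1. At Grin3a 2 of 3 starts were open, both at the 5′ end. The peak called at a Grin2a or Grin2b promoter can therefore stand for more than 1 start. Summing the peaks in the window, with overlapping peaks each added, raised the means to 5.06 for Grin2a and 4.31 for Grin2b. Grin1, whose window held 1 peak per library, stayed at 1.96. The Grin2a sum was 3.120 in replicate 1 and 6.997 in replicate 2, and the Grin2b sum was 4.381 and 4.238. The order of Grin2a and Grin2b thus differed between the libraries. With summed peaks Grin1 fell below Grin2a and Grin2b in both libraries, while Grin3a (mean 1.52) remained the lowest of the open members.

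The 3 closed promoters were empty in every deposited list. Grin2c (chr11:115249169-115267243, minus strand) had its nearest peak 3379 bp from a start in replicate 1 and 3338 bp in replicate 2. Grin3b (chr10:79970715-79977190, plus strand) had its nearest peak 9221 and 9292 bp away. Grin2d (chr7:45831883-45878378, minus strand) had one 869 and 949 bp away, inside the gene. None of the 3 had a footprint in the window in either library. The deposited false discovery rate lists, which name every base interval below 0.05, held 0 bases in these 3 windows in either library. Among all 7983 genes with no promoter peak in either library, 1.38% had a listed base in replicate 1 and 2.04% in replicate 2. The closed members thus had no listed cut enrichment at their starts in either library.

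The Grin2d call depended on the width of the window. Its GENCODE record begins in sequence poor in CpG and also contains, 5.63 kb downstream, the promoter of Kdelr1, which encodes a receptor for proteins retained in the endoplasmic reticulum. A peak at exon 2 (chr7:45866021-45866180, signal 0.88 in replicate 1 and 1.03 in replicate 2) was 78.1% G and C with 27 CpG. Its midpoint lay in exon 2 in replicate 1 and in intron 2 in replicate 2. With a window of 2000 bp this peak added Grin2d to the open members, so that 5 of 7 were open against 63.5% of all genes. A RefSeq start at position 45866681 put the replicate 1 peak inside the 500 bp window, while the replicate 2 peak ended just short of it. With RefSeq starts for all genes the count remained 4 of 7, against 58.2%.

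CpG content did not separate open from closed members. Promoters rich in CpG are open in most tissues. Within 500 bp of the 5′ end of the gene, the ratio of observed to expected CpG was 0.98 for Grin1, 0.78 for Grin2a, 0.74 for Grin3a and 0.43 for Grin2b among the open genes. Among the closed ones it was 0.71 for Grin2c, 0.61 for Grin3b and 0.09 for Grin2d. Grin2c and Grin3a lay in the same of 5 equal bins of genes by this ratio, in which 89.6% of genes had an open promoter. Grin2d lay in the lowest bin, in which 10.3% did. Its ratio is that at the 5′ end of the GENCODE record (chr7:45878378) alone, and its most upstream RefSeq start lay downstream of this, at 45871194. Grin2b, with a ratio below those of Grin2c and Grin3b, was open together with 71.9% of its bin.

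Peaks around the 7 genes were counted by midpoint in the gene record plus 20 kb on each side. These neighbourhoods held 93 peaks in replicate 1 and 118 in replicate 2. Replicate 2 also listed more peaks in the whole genome, 130199 against 98902. Of the replicate 1 peaks 79.6% (74 of 93, Wilson 95% interval 70.3 to 86.5%, counting error only) overlapped a replicate 2 peak, against 81.6% genome-wide. Of the replicate 2 peaks 65.3% (77 of 118, interval 56.3 to 73.2%) overlapped a replicate 1 peak, against 62.0% genome-wide. Both shares lie within counting error of the genome-wide values.

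The 2 longest genes carried most of their open sites in their own introns. Their neighbourhoods are mostly the gene's own record and hold no start of another coding gene, so few other places were available. Pairing each peak with its best overlap in the other library gave 70 sites listed in both, placed here by their replicate 1 peak. Of these 35 lay in introns of the member itself, 19 of them in Grin2a and 12 in Grin2b. A further 13 lay in promoters of other coding genes, 9 in the members' own promoters, 7 inside other coding genes, 4 between coding genes and 2 in the members' own exons. Sites in both libraries inside the gene and outside every coding promoter were present in 5 of 7 members, Grin1, Grin2a, Grin2b, Grin2d and Grin3a, against 39.5% of all genes. By number Grin2a (19) and Grin2b (12) lay at percentiles 99.2 and 98.1 of all genes, but both are long. Per 100 kb of gene Grin2a had 4.44 (percentile 80.9), Grin1 3.57 (76.25), Grin2b 2.61 (70.7), Grin3a 2.17 (68.0) and Grin2d 2.15 (67.9). Genes without any such site fill the percentiles up to 60.5. Grin2c and Grin3b had none.

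**Figure D2:**
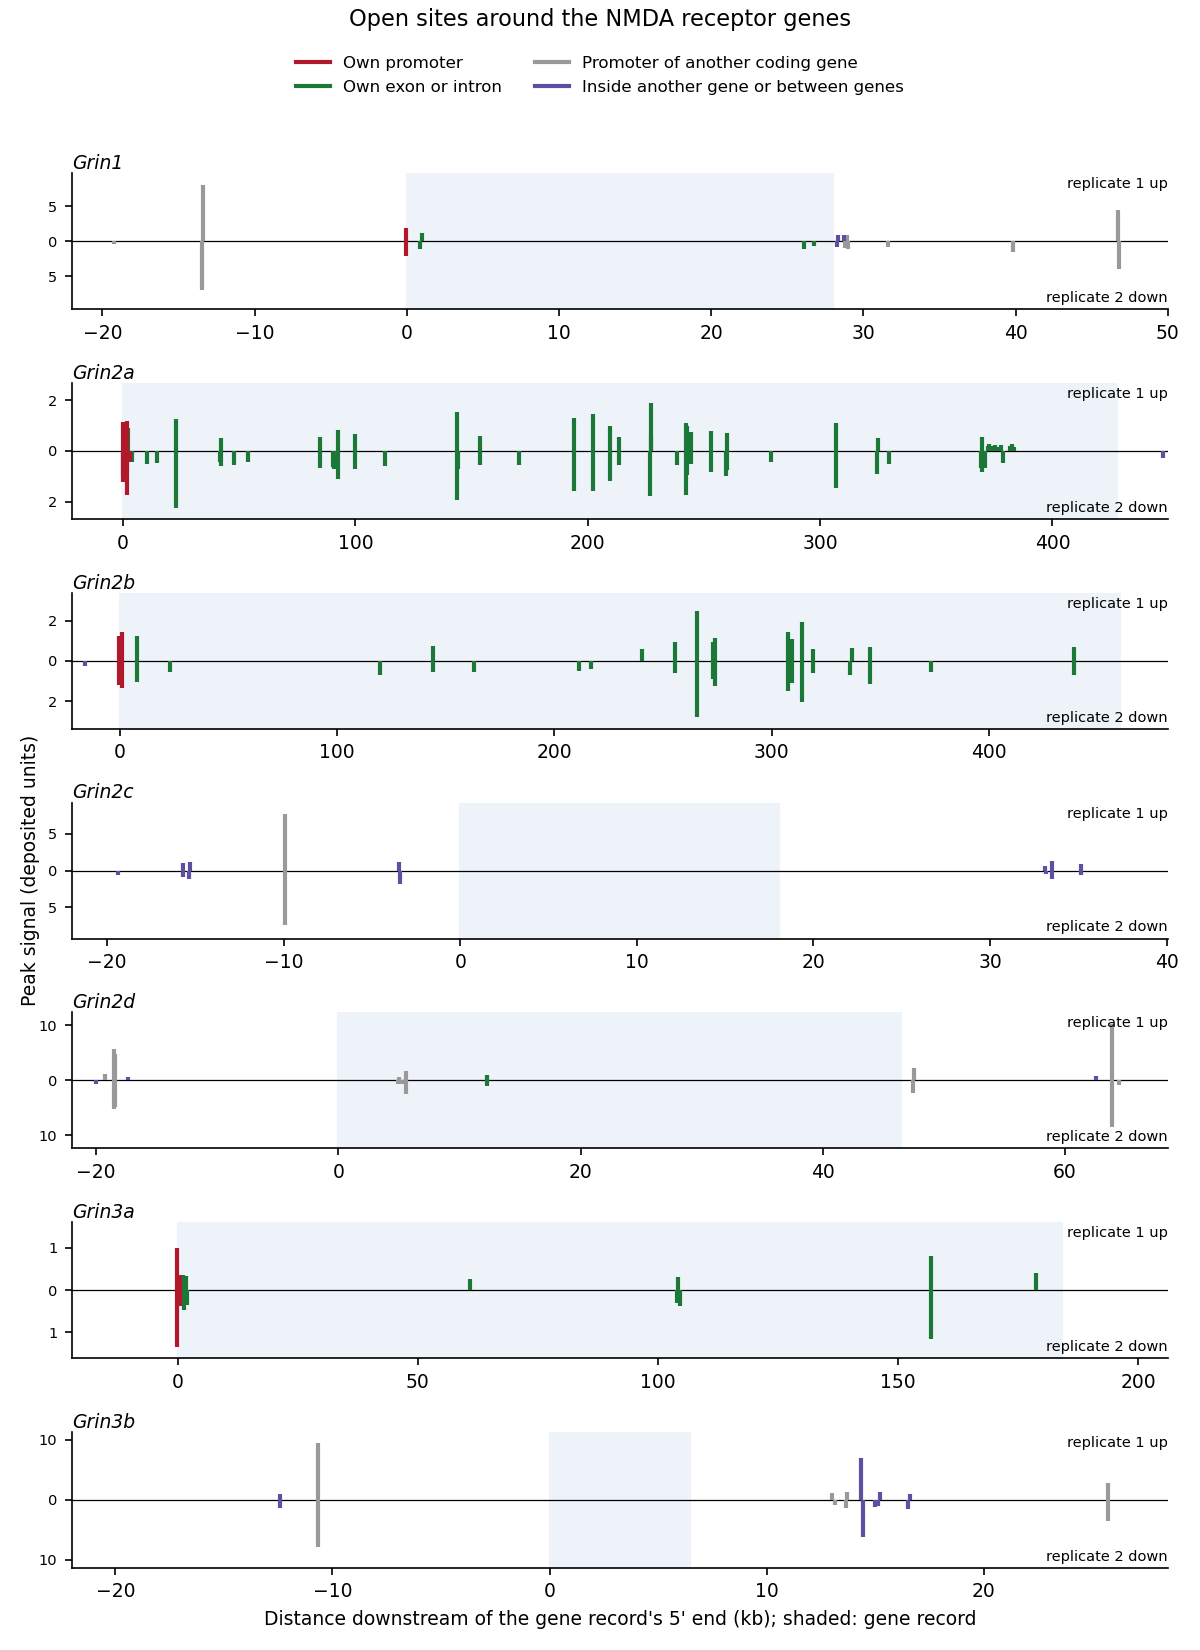
Peaks around each NMDA receptor gene, with distance downstream of the gene's 5′ end in kb on the horizontal axis and peak signal in deposited units on the vertical axis, replicate 1 upward and replicate 2 downward. Shading marks the gene record and colour the place of the peak; Grin2a and Grin2b hold many intronic sites, whereas Grin2c and Grin3b hold no peak and have their highest nearby site in the promoter of another gene.

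The strongest site inside any member lay in Grin2b. Intron 4 of Grin2b held a site 266 kb downstream of the gene's 5′ end (chr6:135907641-135907860) that reached 2.50 in replicate 1 and 2.81 in replicate 2, above the gene's own promoter in both. A second site in the same intron, at 314 kb (chr6:135859561-135859780), had 1.95 and 2.04, and another, at 307 kb (chr6:135865941-135866140), had 1.45 and 1.51. Intron 4 held 8 of the 12 intronic sites of Grin2b shared by the libraries. The pair of strongest sites thus exceeded the promoter, while the other matched it within the spread of the libraries. Nearer the promoter, intron 2 held a site 7.85 kb downstream (1.22 and 1.07).

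In Grin2a the shared intronic sites were more numerous and more even. The 3 with the highest mean signal were all in intron 3: 227 kb downstream (chr16:9768461-9768740, 1.88 and 1.78), 22.7 kb downstream (chr16:9972781-9973020, 1.27 and 2.24) and 144 kb downstream (chr16:9851661-9851880, 1.53 and 1.92). The second of these differed most between libraries and had the larger signal in replicate 2. The next, 202 kb downstream, had 1.47 and 1.57. Like Grin2b, Grin2a therefore had intronic sites at or above the signal of its own promoter. Intron 4 held 5 further shared sites, of which the highest (242 kb downstream) had 1.12 and 1.74.

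A cluster of weak Grin2a peaks was seen in replicate 1 alone. Between chr16:9612089 and chr16:9623231, over 11.1 kb of introns 11 and 12, replicate 1 listed 10 peaks. Of these 8 had signals of 0.15 to 0.23, at or below the library's lowest 5% of peaks (0.23), and held 4 footprints. The other two had 0.29, with 5 footprints, and 0.26, with none. None of the 10 overlapped a replicate 2 peak, although all were in the stricter list of replicate 1. Replicate 2 had 1 peak in this span. Bases listed below a false discovery rate of 0.05 there numbered 2858 in replicate 1 and 119 in replicate 2. Without the 10 peaks of this span the share of replicate 1 neighbourhood peaks that overlapped a replicate 2 peak was 89.2% instead of 79.6%.

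In the other open members shared intronic sites were fewer, and the strongest of them was weaker than the strongest of Grin2a and Grin2b. Grin1 had 1 shared intronic site, 0.98 kb downstream in intron 1 (chr2:25318102-25318340), with 1.10 and 1.11, below its promoter in both libraries. Grin3a had a site in intron 6, 157 kb downstream (chr4:49688741-49688920), with 0.81 and 1.15. Its other shared sites outside the promoter had signals of 0.32 to 0.35 in replicate 1 and 0.31 to 0.48 in replicate 2. Grin2d had the site at exon 2 described above.

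In each of the 4 short-gene neighbourhoods the highest site was the promoter of another gene. At Grin1 the highest site was the promoter of Man1b1, a mannosidase of glycoprotein quality control, 13.4 kb upstream (8.08 and 6.97). The shared promoter of Anapc2 and Ssna1 followed (4.51 and 3.90). At Grin2d the promoter of Cyth2, which encodes an exchange factor for ARF GTPases, reached 10.3 and 8.47, and that of Syngr4 and Tmem143 reached 5.62 and 5.19. The promoters of Grwd1 (2.32 and 2.31) and Kdelr1 (1.73 and 2.52) were also open there. At Grin2c the highest site was the promoter of Fdxr, ferredoxin reductase of the mitochondria, 9.95 kb upstream (7.71 and 7.45). At Grin3b it was that of Wdr18, 10.7 kb upstream (9.42 and 7.90), and the promoters of Abca7 (2.82 and 3.49) and Tmem259 (1.26 and 1.42) lay downstream. Grin3b also had a site of 7.03 and 6.20 at chr10:79984961-79985240, between coding genes. It reached within 500 bp of the annotated start of the small nuclear RNA gene Gm26243, as did a weaker site at chr10:79985821-79986060. Of the 18 coding genes other than the members with an annotated start in the 7 neighbourhoods, 14 were open in both libraries. The share over all protein-coding genes was 59.2%.

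The site closest to the closed Grin2c promoter in both libraries lay 3.45 kb upstream, inside Fdxr (chr11:115270622-115270760). Its signal was 1.15 in replicate 1 and 1.82 in replicate 2, and 37 of its 139 bases lay in footprints of both libraries. A site inside Tmem104, beyond the other end of the gene, had 1.29 and 1.15. A site inside Fads6, 15.3 kb upstream, had 1.17 and 1.11. No peak of either library had its midpoint inside the Grin2c or the Grin3b gene record.

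Peak density was highest around the short genes. Grin3b had 17.2 peaks per 100 kb in replicate 1 and 19.4 in replicate 2 (mean 18.3, percentile 94.7 of all genes). Grin1 had 10.3 and 17.6 (14.0, percentile 88.3), Grin2c 12.1 and 13.8 (12.9, percentile 85.4) and Grin2d 11.6 in each library (percentile 81.0). Grin2a had 7.48 and 10.3 (8.87, percentile 67.6), Grin2b 3.60 and 4.80 (4.20, percentile 31.9) and Grin3a 3.57 and 3.12 (3.35, percentile 25.7). The 4 shortest genes thus had the highest densities, and all 3 closed genes were among them. The median over the 7 was 11.6, against 6.47 over all genes. Within the gene records alone it was 4.24 against 4.64, with Grin2c and Grin3b at 0, and outside every coding promoter it was 5.15 against 3.57. Outside coding promoters Grin2c still had 11.2 (percentile 94.95) and Grin3b 9.68 (percentile 92.1), whereas Grin1 had 5.15 (67.0) and Grin2d 2.89 (41.5).

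**Figure D3:**
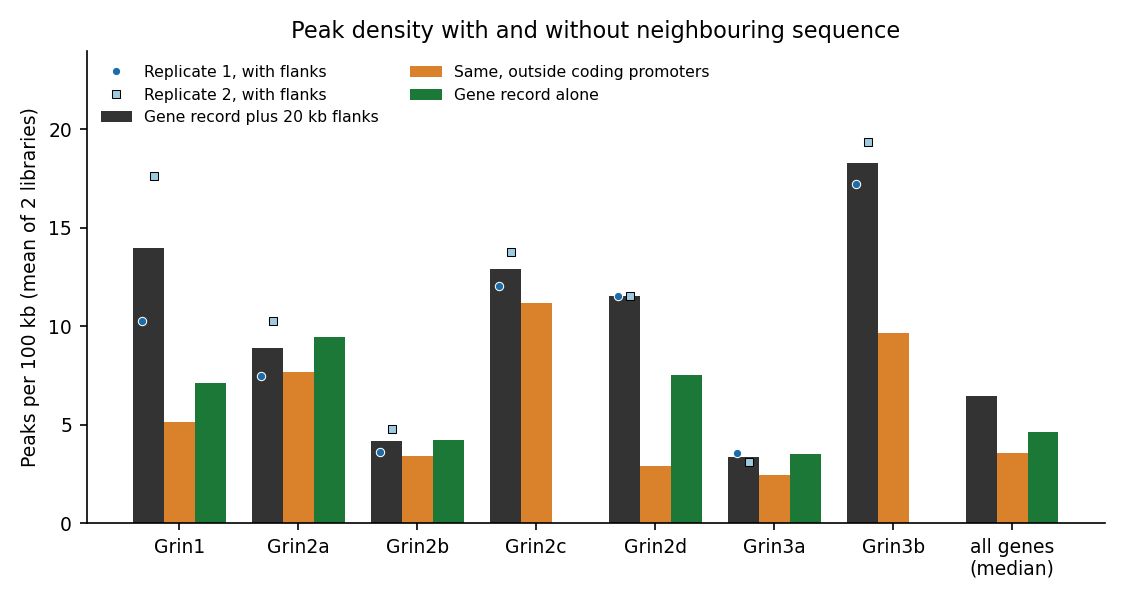
Peaks per 100 kb (vertical axis, mean of 2 libraries) for each NMDA receptor gene and for the median of all protein-coding genes, counted in the gene record plus 20 kb flanks (dark bars, with a circle for replicate 1 and a square for replicate 2), in the same region outside coding promoters (orange bars) and in the gene record alone (green bars). Grin2c and Grin3b, at 12.9 and 18.3 with flanks, have no green bar because no peak lay inside them.

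Signals of the 70 shared sites were close between libraries. The median log2 ratio of replicate 2 to replicate 1 was 0.05, with a middle range of -0.12 to 0.31, against 0.22 over all 78905 pairs in the genome. The lowest was -0.58 and the highest 0.82, the Grin2a site 22.7 kb downstream. The weakest shared sites lay in Grin3a and the strongest in promoters of other genes. The plot of signal in both libraries is coloured by place and does not mark the gene.

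**Figure D4:**
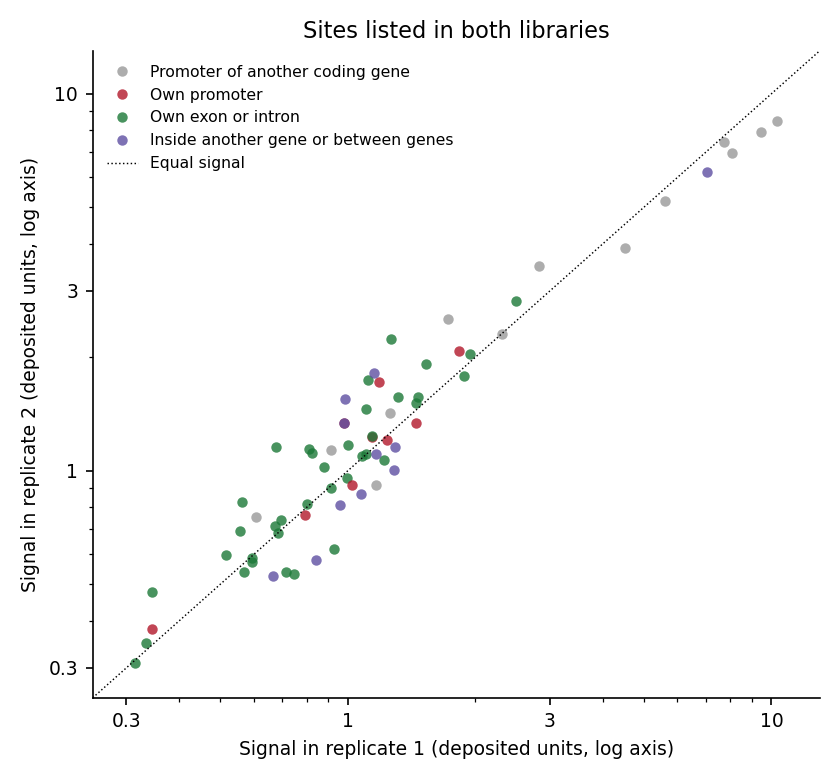
Signal of the 70 shared sites in replicate 1 (horizontal axis) and replicate 2 (vertical axis), in deposited units on log axes, coloured by place, with a dotted line of equal signal. Sites of the members' own promoters, exons and introns lie between 0.31 and 2.81, and the promoters of other coding genes reach 10.3.

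Footprints in the neighbourhoods numbered 263 in replicate 1 and 281 in replicate 2. Of these 83.7% and 89.7% lay in a peak of the same library. A footprint of the other library overlapped 52.1% of those in replicate 1 (interval 46.1 to 58.1%) and 49.8% of those in replicate 2 (44.0 to 55.6%), against 45.3% and 44.3% genome-wide. By member the share ran from 28.6% at Grin3a to 77.8% at Grin2c in replicate 1, and from 34.1% at Grin2a to 68.4% at Grin2d in replicate 2. Grin3a had 44.4% in replicate 2, from 9 footprints. Differences between members were not tested. Median density was 35.3 footprints per 100 kb over the 7 members and 16.0 over all genes.

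Short motifs were searched by their letters on both strands, in windows of 200 bp centred on the 9 shared sites at the members' own promoters and the 48 shared sites outside promoters. A match is a description of the sequence, not of a bound factor. At Grin1, the EGR variant GCGGGGGCG lay from position 5 downstream of the RefSeq start (chr2:25319175-25319183), and all its bases were in footprints of both libraries. It overlaps an SP/KLF GC box, GGGCGG. EGR factors are induced by neuronal activity. This variant was in 3.41% of all 18152 shared promoter sites and in 2.91% of 32851 RefSeq promoters. Upstream of this start lay the short CRE form TGACG at positions -5 and -31, read as CGTCA on the strand of the gene, and the E-boxes CACGTG at -85 and -181. The match at -5 touched no footprint, that at -31 only one of replicate 2, and that at -85 only one of replicate 1. The match at -181 lay beyond the end of the promoter peak in both libraries. In Grin2a 1 of the 9 promoter sites held the left part of the REST motif, TTCAGCACC (chr16:9995596-9995604), outside the footprints of both libraries; 0.34% of all promoter sites held it. REST represses neuronal genes outside neurons.

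Other motifs in the members' promoter sites were near their background shares. The GC box was in 4 of 9 (49.9% of all promoter sites), the short CRE form in 3 of 9 (23.9%), the E-box CANNTG in 5 of 9 (52.0%) and its NeuroD form CAGATG in 1 of 9 (9.75%). The full CRE TGACGTCA, AP-1 (TGANTCA), NRF1 (GCGCATGCG), the right part of the REST motif (GGACAGCGC), the EGR form GCGTGGGCG, the TATA box (TATAAA) and the NFI, MEF2, CTCF and full RFX motifs were in none. Each of these was in at most 3.66% of all promoter sites. The RefSeq promoter table held entries for Grin1, Grin2c, Grin2d and Grin3b. That of Grin2c had 3 GC boxes, at positions -50, -40 and -35 from the start of that entry. They are not in the printed Grin2c stretch, which lies upstream of a RefSeq start further upstream. The Grin3b entry had a TATA box at -164 and a NeuroD E-box at -67.

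Outside promoters, an E-box was in 36 of 48 member sites and in 79.6% of all 60753 such sites. Its NeuroD form was in 15 of 48 against 32.5%, AP-1 in 5 of 48 against 12.03%, the GC box in 6 of 48 against 7.97%, and the CTCF core in 2 of 48 against 6.08%. In the Grin2a intron 5 site chr16:9688601-9688760 (1.10 and 1.46) a NeuroD E-box lay wholly in footprints of both libraries, and a second such match lay in the weaker Grin2a intron 4 site chr16:9742567-9742660. NeuroD factors act in the differentiation of hippocampal granule neurons. After the sequences had been seen, 2 further motifs were searched. The partial RFX motif GTTGCCATG was in both of the strongest Grin2b sites; in that at chr6:135859561-135859780 all of its bases lay in footprints of both libraries, and in the other none did. It was in 1.48% of all sites outside promoters. The short CTCF core CACCAGGGG lay in footprints of both libraries at the Grin2c site inside Fdxr, and was in 1.27% of all sites outside promoters. Because these 2 motifs were chosen after the sequences had been seen, the shares do not measure enrichment in the member sites. The full RFX motif, listed beforehand, was in 0 of 48.

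Most genes that work with the receptor were open. Of 43 partner genes for anchoring, signalling, transport and the co-agonist, 38 were open in both libraries, against 59.2% of all genes. Among scaffold proteins of the postsynaptic density 10 of 12 were open, led by Dlg2 (8.06 and 7.11) and Homer1 (4.97 and 5.25), while Shank1 was open in neither library and Dlgap3 in 1. All 12 signalling genes were open, led by the kinase gene Cdk5 (9.40 and 8.52) and the calcineurin subunit gene Ppp3ca (7.01 and 8.48). All 10 trafficking genes were open, led by Apba1 (3.30 and 4.29) and Lin7c (2.92 and 3.64). Of 9 genes for supply and removal of the co-agonist 6 were open, among them the neutral amino acid transporter gene Slc1a4 (4.03 and 4.02) and the serine racemase gene Srr (2.41 and 2.67). Dao, which encodes D-amino acid oxidase, and the transporter genes Slc6a5 and Slc7a10 were open in neither.

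The AMPA receptor genes, which carry the fast glutamate current, were all open (4 of 4, against 59.2% of all genes), with a median promoter signal of 1.23. Gria2 was the highest with 2.51 and 2.89, and Gria3 the lowest with 0.53 and 0.59. Of the 7 kainate and delta receptor genes 5 were open in both libraries, against the same 59.2%, with a median of 1.08. Grik3 was open in neither library and Grid1 in 1. Open promoters of all 3 receptor families thus had medians below the 2.30 of all open genes. In promoter signal, peak and footprint density and neighbourhood length combined, the gene most like Grin1 among 12963 compared was Arid3a, and those most like Grin2a, Grin2b and Grin3a were Maml3, Lrrc7 and Exoc2. The measure was the sum of absolute log2 differences over these 4 values (0.16, 0.10, 0.49 and 0.41).

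The tissue label was set beside marker genes, and no verdict on it was drawn from them. Of the 39 markers listed, 19 were open in both libraries, against 59.2% of all genes, and the counts were not tested. All 5 glutamatergic neuron markers were open in both libraries, among them Camk2a (3.04 and 2.48) and Slc17a7 (1.09 and 1.19). The count was 5 of 6 for astrocytes, 3 of 5 for oligodendrocytes, 2 of 5 for GABAergic neurons, 1 of 5 for microglia, 1 of 4 for endothelial cells, 2 of 5 for cerebellar granule cells and 0 of 4 for choroid plexus. The median signal of open markers was 1.45 for glutamatergic neurons, 1.51 for cerebellar granule cells, 1.47 for astrocytes and 1.80 for oligodendrocytes. It was at most 0.58 in the other groups with an open marker. In a mixed tissue a site open in few cells and a site weakly open in many cannot be told apart, and this holds for every signal given here, those of the closed members included.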

How the data were processed

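DNase-seq of hippocampus was analysed in 2 libraries of 1 group, grouped by the replicate number in the labels. Per the file headers and notes, the authors made each list from that library's own mm10 alignments, without pooling, with aligner, callers and versions not given in the sources used here. The deposited peaks carry a signal whose scale is not stated; in 100% of peaks it was a whole multiple of a step fixed within each library (tolerance 0.05 of a step). It served to describe and rank peaks. In the deposited false discovery rate lists, which hold a kind of p-value, all intervals are below 0.05. The deposited footprints all carry 0.01, also a kind of p-value, and were not ranked. The depth in reads is unknown.

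The cross was mapped to the reference assembly; the effect on sites where the parents differ was not tested. Genes and starts were those of GENCODE M21. Shared means an overlap of at least 1 bp, and paired sites were mutual best overlaps. Peaks were assigned by midpoint. No test was made, because there is 1 group. Percentiles are over all protein-coding genes, or for promoter signal those open in both libraries, and describe these libraries. Wilson 95% intervals cover counting error only. A total of 16 motifs, and 2 added after the sequences were seen, were searched in 200 bp windows centred on the common stretch of paired peaks, for shares, in that stretch itself, for positions, and in RefSeq promoters (GRCm38.p6), and matches were set against the footprints of both libraries. The counting code was checked on simulated data. Python 3.11.15, numpy 2.4.6, pandas 2.3.3 and pysam were used.

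Named genes were all 7 members, the other coding genes whose promoters touched a member's 5 strongest shared sites, and, per partner group, the 2 open genes with the highest signal and the first 2 closed ones by alphabet. The highest peak in 1 library was also taken per member. Members, lists and rules were chosen with earlier results of these data known. Alternatives were the stricter list, windows of 2000 bp, flanks of 0 or 50 kb, other start annotations, a reciprocal overlap of 0.5, scaled or summed signal, and each library left out. Merged peaks, RefSeq starts and the omission of a stretch of Grin2a were added after seeing the data.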

Additional observations from a re-analysis of the deposited data

How the results depend on the processing

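The counts of 4 open promoters and 4 promoters with footprints, of 7, stayed within 4 to 5 under every alternative run. The median of 11.6 peaks per 100 kb, against 6.47 over all genes, changed with the setting. It fell to 7.52 with the stricter list (all genes 4.04) and to 5.15 outside coding promoters (3.57). It was 4.24 without flanks (4.64) and 9.83 with overlapping peaks merged (6.36). Leaving out replicate 2 gave 10.3 (all genes 5.53), and leaving out replicate 1 gave 11.6 (7.13). The median of 35.3 footprints per 100 kb fell to 9.78 without flanks. A reciprocal overlap of 0.5 lowered the shared shares from 79.6% and 65.3% to 63.4% and 50%, and leaving out the Grin2a stretch raised the first to 89.2%. The causes of these shifts were not tested. No paired analysis was possible because there is 1 group. Without flanks the members' median lay below that of all genes (4.64), and above it (6.47) with them. Summed promoter peaks, with overlapping peaks each added, put Grin2a (5.06) and Grin2b (4.31) above Grin1 (1.96). The depth in reads is unknown, so a closed promoter means no listed peak, not absence of cuts.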

Other observations

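Peaks in 1 library alone were listed near 6 of the 7 members. By member, the highest near Grin1 was a peak of 1.60 in the promoter of Anapc2, in replicate 2. Near Grin2d it was a peak of 1.17 at the Tmem143 promoter in replicate 1 and one of 0.78 at the Cyth2 promoter in replicate 2. In Grin2a it was an intronic peak of 0.64 in replicate 1 and one of 0.99 in replicate 2. Those of Grin2b had at most 0.63 in replicate 1 and 0.72 in replicate 2, those of Grin3a at most 0.41 and 0.37, and the one near Grin2c, in replicate 2, had 0.60. Every peak near Grin3b overlapped a peak of the other library.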
